A study of Mus musculus with 14 samples.

Results

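The enzymes that make serine and pass its side-chain carbon through folate are encoded by 10 of the 37310 gene identifiers in the deposited count tables. They were chosen by gene symbol, each symbol matching 1 Ensembl identifier: Phgdh, Psat1, Psph, Shmt1, Shmt2, Mthfd1, Aldh1l1, Mthfd2, Mthfd1l and Aldh1l2. RNA was sequenced from 14 mouse libraries in 3 tables. Each comparison of a group with its reference stayed within its own table, and 1 further fit joined the TSC1 KO and Db tables. Wild-type pancreatic β-cells came from adults at postnatal day 45 (n = 3) and neonates at day 6 (n = 3). Whole islets came from 8-week-old mice labelled TSC1 KO (n = 2) and their controls with the prefix RC (n = 2), a prefix the labels do not explain. A further set of whole islets came from 4-week-old mice labelled Db (n = 2) and their controls with the prefix BKS (n = 2). C57BL/6 is given as the strain background of all 14 libraries.

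The series' design text calls the knockout βTSC1 KO. Not given in the sources used here are the driver of its deletion, the alleles of the RC and BKS controls, the way the β-cells were obtained, and whether each library stands for another animal. The p-values therefore measure the spread between libraries, which may be technical. Tsc1, the gene named by the knockout, read 31 and 34.45 CPM (reads per 1000000 gene reads of the scaled library) in TSC1 KO islets, against 25.12 and 54.14 CPM in RC control islets, and did not separate the groups (edgeR adjusted p = 0.638). The count covers the whole gene, and which exons the knockout removes is not given. Lepr, the leptin receptor gene that carries the classical db mutation, read 0.055 and 0.19 CPM in Db islets, against 1.18 and 0.26 CPM in BKS control islets, too few reads to be tested. Gene counts per library were 12696006 to 16222921 in β-cells, 3507929 to 6212629 in the TSC1 KO table and 9020767 to 17688772 in the Db table. Reads of all 10 β-cell markers were present in every library, which does not tell β-cells from whole islets. Insulin transcripts took 4.36% to 7.22% of gene counts in adult and 1.83% to 2.62% in neonatal β-cell libraries. In islets they took 0.97% and 1.05% in TSC1 KO, 24.53% and 27.86% in RC control, 45.53% and 48.33% in Db and 61.04% and 70.03% in BKS control libraries, so the libraries labelled β-cells had lower shares than either set of control islets.

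Serine is made from the glycolytic intermediate 3-phosphoglycerate by PHGDH, PSAT1 and PSPH acting in turn. Serine hydroxymethyltransferases then move a carbon unit from serine to tetrahydrofolate and leave glycine, in the cytosol (SHMT1) or the mitochondrion (SHMT2). In mitochondria MTHFD2 oxidises the folate-bound unit and MTHFD1L releases it as formate, which cytosolic MTHFD1 loads back on to folate for purine and thymidylate synthesis. ALDH1L1 in the cytosol and ALDH1L2 in the mitochondrion oxidise 10-formyltetrahydrofolate to carbon dioxide with formation of NADPH. In several mammalian cell types the transcription factor ATF4, translated when amino acids run short or the endoplasmic reticulum is stressed, activates serine synthesis and mitochondrial folate genes, and mTORC1 has been reported to act on them through it.

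The windows around the start sites of 4 genes are shown because their transcripts carried the largest called rises in Db islets (Phgdh and Psph) and the called falls in TSC1 KO islets (Mthfd2 and Mthfd1l). Each window holds 250 bases before and 50 bases after the RefSeq start site, read 5′ to 3′ on the gene's strand in build GRCm38.p6. Phgdh lies at chr3:98339920-98340219 (minus strand), Psph at chr5:129787204-129787503 (minus strand), Mthfd2 at chr6:83317555-83317854 (minus strand) and Mthfd1l at chr10:3972825-3973124 (plus strand). Capitals mark matches on either strand to CCAAT (the CCAAT box, ATTGG on the other strand) and to GGGCGG (the GC box, CCGCCC on the other strand).
Phgdh: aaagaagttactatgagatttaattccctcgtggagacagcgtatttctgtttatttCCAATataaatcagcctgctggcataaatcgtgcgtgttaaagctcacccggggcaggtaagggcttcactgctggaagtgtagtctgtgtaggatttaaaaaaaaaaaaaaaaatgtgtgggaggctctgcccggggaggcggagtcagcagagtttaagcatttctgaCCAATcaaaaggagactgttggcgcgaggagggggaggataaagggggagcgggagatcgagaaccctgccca
Psph: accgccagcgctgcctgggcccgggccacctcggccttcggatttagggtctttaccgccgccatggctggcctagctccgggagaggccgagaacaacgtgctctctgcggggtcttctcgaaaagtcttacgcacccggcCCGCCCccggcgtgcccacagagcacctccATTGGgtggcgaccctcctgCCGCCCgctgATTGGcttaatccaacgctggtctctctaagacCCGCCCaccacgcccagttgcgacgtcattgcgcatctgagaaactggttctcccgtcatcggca
Mthfd2: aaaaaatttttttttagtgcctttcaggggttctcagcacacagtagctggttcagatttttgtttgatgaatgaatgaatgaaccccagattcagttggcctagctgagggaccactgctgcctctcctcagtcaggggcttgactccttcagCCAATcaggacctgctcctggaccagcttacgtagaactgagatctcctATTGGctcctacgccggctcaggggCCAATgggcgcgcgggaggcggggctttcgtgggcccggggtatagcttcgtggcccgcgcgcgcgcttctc
Mthfd1l: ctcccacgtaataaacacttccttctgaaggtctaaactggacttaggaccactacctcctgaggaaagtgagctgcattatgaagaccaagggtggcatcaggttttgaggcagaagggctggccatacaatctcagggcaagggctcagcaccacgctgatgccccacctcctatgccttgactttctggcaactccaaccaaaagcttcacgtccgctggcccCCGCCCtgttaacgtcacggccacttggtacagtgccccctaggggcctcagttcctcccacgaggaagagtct
Windows were matched for 9 of the 10 genes, and Psat1 has a pair of them. CCAAT was found in the windows of 7 of these 9 genes and GGGCGG in those of 6, against 41.06% and 38.2% of the 27025 genes with a window of 300 bases in the RefSeq table (37.41% and 35.66% of all windows). The Phgdh window has CCAAT 193 and 23 bases before the start site. The Psph window has it 78 and 48 bases before, with GGGCGG at 108, 58 and 15 bases. Mthfd2 has CCAAT at 96, 47 and 22 bases, and Mthfd1l has GGGCGG at 24 bases. The letters of the C/EBP-ATF element were searched as TGATGNAA and as TGANGCAA, which can match the same stretch, and the E-box as CACGTG. None of these 3 was found in the windows of the 9 genes, against 4.511%, 4.222% and 8.093% of all genes with a window (3.969%, 3.692% and 7.15% of all windows). These are matches of letters in a short window and say nothing about binding.

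Transcript levels were first set in order within each group, as CPM per kilobase of exon so that genes of different length can be compared. Mthfd1 (ENSMUSG00000021048), the cytosolic trifunctional folate enzyme, had the highest mean in 5 of the 6 groups. It averaged 48.6 CPM per kilobase in adult β-cells (range 47.2 to 49.5) and 42.3 in neonatal β-cells (29.7 to 51.4). In islets it averaged 9.62 in TSC1 KO, 11.3 in RC control and 10.2 in BKS control. In Db islets Shmt2 had rank 1 at 7.76 CPM per kilobase (7.44 to 8.07), followed by Phgdh at 7.72 (6.92 to 8.52), Mthfd1 at 6.84 (6.35 to 7.32) and Mthfd2 at 6.67 (6.23 to 7.12). Each of these 4 ranges overlapped that of its neighbour in the order. In neonatal β-cells the range of Mthfd1 also overlapped that of Mthfd2 (17.1 to 60.9), the next in order.

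Phgdh had rank 5 or 6 in the other groups, at 1.40 CPM per kilobase in BKS control islets. The place of Aldh1l2 varied between the groups. It had rank 4 in adult β-cells at 15.1 CPM per kilobase (11.2 to 18.5) and rank 7 in neonatal β-cells at 3.59 (1.46 to 7.70). In TSC1 KO islets it was last at 0.25 CPM per kilobase (0.062 to 0.45). Mthfd2 and Mthfd1l, at ranks 2 and 3 in adult β-cells with 22.9 and 20.9 CPM per kilobase, had ranges that overlapped there. Shmt1 and Aldh1l1, the cytosolic counterparts of Shmt2 and Aldh1l2, took the last 2 places in every group except TSC1 KO islets. In TSC1 KO islets Shmt1 had rank 3 at 2.12 CPM per kilobase, with a range that overlapped those of Mthfd2 (2.10) and Phgdh (2.05). Levels are set side by side across tables only as ranks, since the tables were scaled separately.

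**Figure D1:**
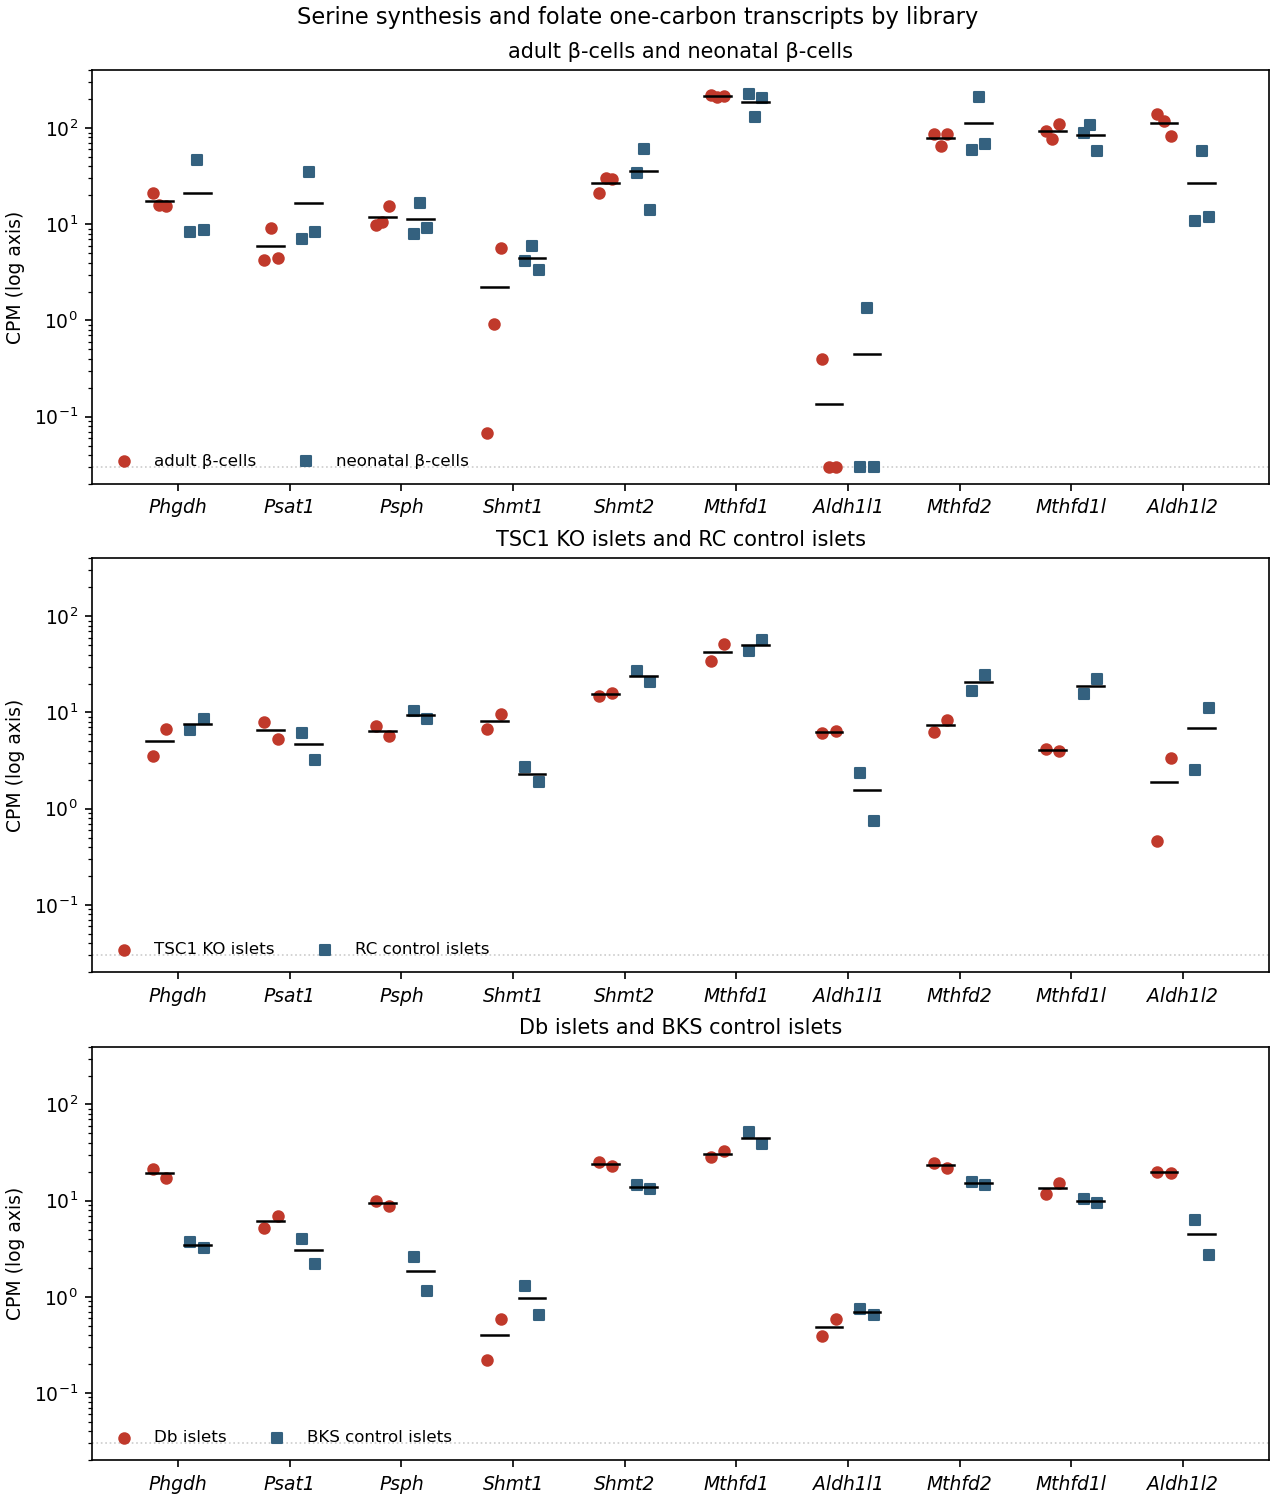
Level of each enzyme transcript in every library, in CPM on a log axis, with adult, TSC1 KO and Db libraries as red circles left of neonatal, RC control and BKS control libraries as blue squares. Black bars are group means (n = 3 in β-cells, n = 2 in islets) and points on the dotted line had 0 counts; the Db circles of Phgdh, Psph and Aldh1l2 lie clear above the BKS control squares, and 1 neonatal square stands high for Phgdh, Psat1, Mthfd2 and Aldh1l2.

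Adult β-cells were compared with neonatal β-cells to ask how these transcripts stand before and after maturation. None of the 9 enzyme transcripts tested passed an edgeR adjusted p of 0.05, where 6.98% of the 14304 transcripts tested did (3.38% higher and 3.6% lower in adults). At an unadjusted p under 0.05 there were 2, Aldh1l2 and Psat1. DESeq2 called 0 and limma-voom called 1, Aldh1l2. Aldh1l2 was the 1 transcript of 9 whose groups did not overlap, against 27.4% of all transcripts tested (14% higher and 13.4% lower). Phgdh, Psat1, Psph, Shmt2, Mthfd1, Mthfd2 and Mthfd1l each had an SD over the 3 neonatal libraries that was larger than the difference between the age means.

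Aldh1l2 (ENSMUSG00000020256), the mitochondrial 10-formyltetrahydrofolate dehydrogenase, read 139, 117 and 83.7 CPM in adult β-cells, against 10.9, 57.8 and 12.1 CPM in neonatal β-cells. Every adult library lay above every neonatal library, and neonatal replicate 3a lay well above the other neonatal libraries. The log2 fold change was 2.08 ± 0.70 (SE), with an edgeR adjusted p of 0.16. With limma-voom the change was 2.54, and the adjusted p was 0.00183. Without neonatal replicate 3a it was 3.30 (edgeR adjusted p = 1.66e-08). Over all 12 alternatives the adjusted p ran from 1.66e-08 to 0.386.

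The 3 serine synthesis enzymes gave no call between the ages. Phgdh (ENSMUSG00000053398), the dehydrogenase of the first step, read 21.1, 15.9 and 15.7 CPM in adult β-cells, against 8.26, 47.1 and 8.76 CPM in neonatal β-cells. The adult libraries fell between neonatal replicate 3a and the other neonatal libraries, so the groups overlapped (log2 fold change -0.28 ± 0.58, edgeR adjusted p = 0.857). Without neonatal replicate 3a the sign turned, to 1.05, with an adjusted p of 0.182.

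Psat1 (ENSMUSG00000024640), the aminotransferase of the second step, read 4.28, 9.21 and 4.48 CPM in adult β-cells, against 6.96, 34.9 and 8.40 CPM in neonatal β-cells. Adult replicate 2 lay above both lower neonatal libraries, so the groups overlapped (-1.48 ± 0.63, edgeR adjusted p = 0.189). Without neonatal replicate 3a the change was -0.36. Psph (ENSMUSG00000029446), the phosphatase of the last step, read 9.77, 10.5 and 15.7 CPM in adult β-cells, against 8.00, 16.8 and 9.07 CPM in neonatal β-cells, and the groups overlapped (0.088 ± 0.49, edgeR adjusted p = 0.954).

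Mthfd2 (ENSMUSG00000005667), the mitochondrial methylenetetrahydrofolate dehydrogenase and cyclohydrolase, read 86.9, 65.7 and 86.5 CPM in adult β-cells, against 59.5, 212 and 68.4 CPM in neonatal β-cells. Neonatal replicate 3a lay above every adult library, adult replicate 2 lay between the other neonatal libraries, and the groups overlapped (-0.51 ± 0.47, edgeR adjusted p = 0.637), and the sign turned to 0.32 without that library. Mthfd1l (ENSMUSG00000040675), the mitochondrial formyltetrahydrofolate synthetase, ranged from 76.7 to 109 CPM in adult β-cells and from 58.4 to 108 CPM in neonatal β-cells (0.13 ± 0.24, edgeR adjusted p = 0.839). Shmt2 (ENSMUSG00000025403) ranged from 21.4 to 30.1 CPM in adult β-cells and from 14.2 to 60.1 CPM in neonatal β-cells (-0.42 ± 0.41, edgeR adjusted p = 0.646, and 0.16 without neonatal replicate 3a). For both the groups overlapped.

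Among the cytosolic enzymes, Mthfd1 ranged from 210 to 220 CPM in adult β-cells and from 132 to 228 CPM in neonatal β-cells (0.20 ± 0.20, edgeR adjusted p = 0.645). Shmt1 (ENSMUSG00000020534) read 0.067, 0.93 and 5.68 CPM in adult β-cells, which came from 1, 13 and 71 reads, against 4.16, 5.99 and 3.35 CPM in neonatal β-cells. The adult libraries thus spread over a far wider range than the neonatal ones, and the groups overlapped (-1.02 ± 1.25, edgeR adjusted p = 0.731). Aldh1l1 (ENSMUSG00000030088) had too few reads to be tested in β-cells. It had 6, 0 and 0 reads in adult libraries, against 0, 20 and 0 reads in neonatal libraries, where 0 reads allow a level of up to 0.24 CPM (3 reads, counting error only).

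Neonatal replicate 3a had the highest of the 3 neonatal values for 8 of the 9 enzyme transcripts tested, Mthfd1 being the exception. Over all 14304 transcripts tested it was the highest for 34.21%. It exceeded both other neonatal libraries by 2-fold or more for 4 of the 9 (Phgdh, Psat1, Mthfd2 and Aldh1l2), against 6.32% of all transcripts. In a list of 23 genes of the ATF4 and amino acid response that holds none of the 10 enzymes, 21 were tested. It was the highest for 15 of these 21, and by 2-fold for 10.

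Asns, asparagine synthetase and a known ATF4 target, read 231 CPM in that library and 89.0 and 91.6 CPM in the other neonatal libraries. Trib3, a pseudokinase gene induced in the same response, read 20.9 CPM there and 1.11 and 0.24 CPM in the others. Both genes were chosen after their values were seen. The summed level of 15 S-phase and proliferation genes was 650 CPM in neonatal replicate 3a, against 1150 and 1133 CPM in the other neonatal libraries. Over all transcripts, 25.8% lay over 2-fold from the mean of the other neonatal libraries for replicate 3a. The share was 24.96% for replicate 3b and 19.43% for replicate 1, but replicate 3a is itself part of the mean for those libraries. A chi-square of counts per degree of freedom gave 71.49 and 81.32 for the pairs with replicate 3a, against 51.69 for replicates 1 and 3b. The part of the state of replicate 3a in the comparison of ages was not tested beyond the values given without that library.

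Few members of the lists of neighbouring pathways passed between the ages, as did few of all transcripts tested (6.98%, 3.38% higher and 3.6% lower). In the ATF4 and amino acid response 1 of 21 tested was higher in adults and 1 was lower, with a median log2 fold change of -0.15 against -0.025 over all transcripts. Of 12 tested genes for folate uptake and other folate enzymes 1 fell, Fpgs, which adds the glutamate tail that keeps folate in cells (21.9 CPM in adults, 47.6 CPM in neonates, log2 fold change -1.12 ± 0.29, edgeR adjusted p = 0.0284). Of 10 tested serine and glycine transporters 1 fell, Slc38a5, a carrier of glutamine, serine and glycine. It read 1.00, 1.00 and 3.04 CPM in adult β-cells, against 37.4, 35.8 and 13.3 CPM in neonatal β-cells (-4.11 ± 0.59, edgeR adjusted p = 0.000522), with no overlap. A list of methionine cycle and transsulfuration genes also holds Srm, the spermidine synthase gene. In this methionine list 1 of 14 rose, Mat1a, a methionine adenosyltransferase (1.64 ± 0.29, edgeR adjusted p = 0.00284). At an unadjusted p under 0.05 there were 7 of 21 in the ATF4 list and 7 of 14 in the methionine list. There were 3 of 12 in the folate list and 2 of 10 among the transporters. None of 12 purine synthesis genes, 4 glycine cleavage genes and 6 glutathione genes passed by edgeR (2, 0 and 0 at an unadjusted p under 0.05).

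Markers of other cells moved with age. Of the 10 β-cell markers 5 were higher in adults and none lower, with summed levels of 55080 to 90900 CPM in adults and 24400 to 33550 CPM in neonates. Of 15 S-phase and proliferation genes 5 were lower and none higher, with summed levels of 320 to 532 CPM in adults and 650 to 1150 CPM in neonates. Duct markers had 3 of 8 lower and other endocrine markers 2 of 9 lower. Mesenchymal markers passed in 0 of 6 tested by edgeR (0 at an unadjusted p under 0.05) and their sum was 9.52 to 38.6 CPM in adults and 5.85 to 197 CPM in neonates. In such bulk samples fewer cells of a type and less RNA per cell cannot be told apart, and the part of these shifts in the enzyme values was not tested.

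**Figure D2:**
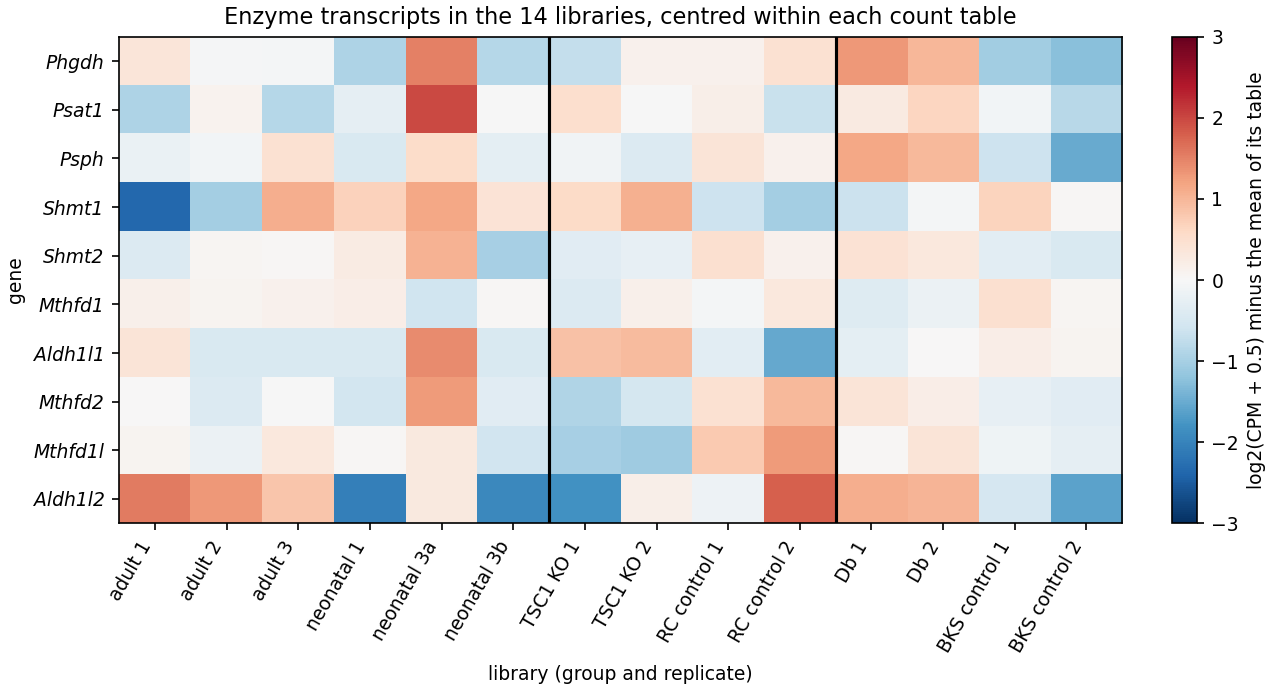
Each cell is log2(CPM + 0.5) of 1 enzyme transcript (rows) in 1 library (columns, n = 14) minus its mean over the libraries of the same table, red above and blue below that mean. Black lines part the 3 tables; neonatal 3a is red for every row but Mthfd1, and the Db columns are red for Phgdh, Psat1, Psph, Shmt2, Mthfd2 and Aldh1l2.

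Islets labelled TSC1 KO were compared with RC control islets to ask how the enzymes stand where the TSC complex, a brake on mTORC1, is labelled as lost. Of the 10 enzyme transcripts tested, 1 rose and 2 fell, where 18.6% of all 14515 transcripts tested passed (8.63% higher and 10% lower). Mthfd1l fell by 2.20 and Mthfd2 by 1.51 on the log2 scale, both enzymes of the mitochondrial branch, while cytosolic Shmt1 rose by 1.82. The groups did not overlap for 6 of 10, 2 higher and 4 lower, against 67.7% of all transcripts (33.6% higher and 34% lower). No serine synthesis enzyme passed, nor did one have an unadjusted p under 0.05.

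Mthfd1l read 4.20 and 4.01 CPM in TSC1 KO islets, against 15.6 and 22.4 CPM in RC control islets. These levels came from 18 and 12 reads in TSC1 KO libraries and 99 and 152 reads in RC control libraries. Both TSC1 KO libraries lay far below both controls (log2 fold change -2.20 ± 0.33, edgeR adjusted p = 0.0157). Mthfd2 read 6.29 and 8.36 CPM in TSC1 KO islets, against 16.9 and 24.4 CPM in RC control islets. The groups were well apart (-1.51 ± 0.32, edgeR adjusted p = 0.03).

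Aldh1l2, another enzyme of the mitochondrial branch, read 0.47 and 3.34 CPM in TSC1 KO islets, against 2.53 and 11.2 CPM in RC control islets. The libraries differed several-fold within each group and the groups overlapped (-1.96 ± 1.07, edgeR adjusted p = 0.247). Summed over Mthfd2, Mthfd1l and Aldh1l2, the level was 11.0 to 15.7 CPM in TSC1 KO islets and 35.1 to 58.0 CPM in RC control islets, with no overlap. Shmt2, also of the mitochondrial branch, is given below and is not in this sum.

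Shmt1 had 29 and 29 reads in TSC1 KO libraries and 17 and 13 reads in RC control libraries. It read 6.76 and 9.70 CPM in TSC1 KO islets, against 2.69 and 1.91 CPM in RC control islets, and the groups did not overlap (1.82 ± 0.45, edgeR adjusted p = 0.0407). Its call was lost with library size as the scale, with DESeq2, with the replicate number as a block and without either TSC1 KO library or RC control replicate 2, where the adjusted p over the alternatives ran from 0.0229 to 0.252. Its mitochondrial counterpart Shmt2 read 14.9 and 16.1 CPM in TSC1 KO islets, against 26.9 and 20.9 CPM in RC control islets. The groups did not overlap, but the difference did not pass (-0.63 ± 0.24, edgeR adjusted p = 0.121).

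Aldh1l1 read 6.06 and 6.35 CPM in TSC1 KO islets (26 and 19 reads), against 2.37 and 0.74 CPM in RC control islets (15 and 5 reads). The groups did not overlap, and the difference missed the threshold (1.99 ± 0.62, edgeR adjusted p = 0.0731). It passed without RC control replicate 1 and with no filter on low counts, within a range of 0.0199 to 0.293 over the alternatives. Mthfd1 read 34.3 and 51.2 CPM in TSC1 KO islets, against 43.9 and 56.8 CPM in RC control islets, with overlap (-0.24 ± 0.27, edgeR adjusted p = 0.551).

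Of the serine synthesis transcripts, Phgdh read 3.50 and 6.69 CPM in TSC1 KO islets, against 6.64 and 8.53 CPM in RC control islets (-0.60 ± 0.44, edgeR adjusted p = 0.369). Psat1 read 7.92 and 5.35 CPM in TSC1 KO islets, against 6.16 and 3.24 CPM in RC control islets (0.51 ± 0.48, edgeR adjusted p = 0.476). Both pairs of groups overlapped. Psph read 7.22 and 5.69 CPM in TSC1 KO islets, against 10.3 and 8.53 CPM in RC control islets, without overlap, and its change did not pass (-0.53 ± 0.34, edgeR adjusted p = 0.301). Their summed level was 17.7 to 18.6 CPM in TSC1 KO islets and 20.3 to 23.1 CPM in RC control islets.

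Each group of this table holds 2 libraries. Without either TSC1 KO library 0 of 10 passed by edgeR, 3 and 2 did at an unadjusted p under 0.05, and 0 of all transcripts passed. The single TSC1 KO library left is then assumed to vary like the RC controls, so this count of 0 says little about the enzymes. Without TSC1 KO replicate 1 the log2 fold changes were -2.25 for Mthfd1l, -1.31 for Mthfd2 and 2.06 for Shmt1, and without TSC1 KO replicate 2 they were -2.18, -1.72 and 1.55 in the same order. Without RC control replicate 1 the count was 4, and without RC control replicate 2 it was 1, Mthfd1l, the call for Mthfd2 being lost.

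The ATF4 and amino acid response had 2 higher and 8 lower of 21 tested in TSC1 KO islets, with a median log2 fold change of -0.58, against -0.0031 over all transcripts. Slc7a5, the light chain of the large neutral amino acid exchanger, read 8.16 and 7.02 CPM in TSC1 KO islets, against 35.4 and 50.5 CPM in RC control islets (-2.49 ± 0.28, edgeR adjusted p = 0.0109). Pycr1, a mitochondrial enzyme of proline synthesis, read 3.73 and 4.35 CPM in TSC1 KO islets, against 17.7 and 24.7 CPM in RC control islets (-2.40 ± 0.33, edgeR adjusted p = 0.0131). For both, every TSC1 KO library was below every control. Stc2, a secreted glycoprotein of the stress response, stood the other way, at 12.6 and 13.0 CPM in TSC1 KO islets, against 0.79 and 0.29 CPM in RC control islets (4.52 ± 0.52, edgeR adjusted p = 0.0109), as did Gpt2, a mitochondrial alanine aminotransferase (2.30 ± 0.41, edgeR adjusted p = 0.0223).

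Among serine and glycine transporters 2 of 11 rose and 1 fell. The plasma membrane exchanger gene Slc1a5 rose by 1.41 ± 0.23 on the log2 scale (edgeR adjusted p = 0.0172). The sideroflexin gene Sfxn3 read 55.2 and 54.5 CPM in TSC1 KO islets, against 28.3 and 21.9 CPM in RC control islets (edgeR adjusted p = 0.0233). Sfxn2, of the same mitochondrial carrier family as the serine transporter sideroflexin 1, read 14.5 and 11.4 CPM in TSC1 KO islets, against 36.2 and 51.9 CPM in RC control islets (-1.76 ± 0.28, edgeR adjusted p = 0.0164). In folate uptake and other folate enzymes 1 of 12 fell, the folate receptor gene Folr1 (-2.22 ± 0.40, edgeR adjusted p = 0.0206). In the methionine list 3 of 14 fell, Mat1a, Cbs and Srm, by 1.64 to 2.46 on the log2 scale. In purine synthesis 1 of 13 rose and 2 fell. In the list of glutathione genes 1 of 7 rose, Gclc of glutathione synthesis, and 2 fell, Chac1 and Ggt7, neither an enzyme of synthesis. Of 3 glycine cleavage genes and 10 glycolysis genes tested none passed by edgeR (0 and 3 at an unadjusted p under 0.05).

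The make-up of the TSC1 KO libraries differed from that of their controls. Of 10 β-cell markers 9 fell, with summed levels of 12860 to 13360 CPM in TSC1 KO islets and 235000 to 265500 CPM in RC control islets. Of 9 other endocrine markers 6 fell and 1 rose (3176 to 7885 CPM, against 28310 to 33970 CPM). Of 8 duct markers 2 rose (2299 to 3130 CPM, against 337 to 1028 CPM), of 7 endothelial markers 2 rose (3551 to 4786 CPM, against 2316 to 2571 CPM) and of 8 mesenchymal markers none passed by edgeR, 3 having an unadjusted p under 0.05 (828 to 4430 CPM, against 280 to 669 CPM).

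All 4 tested markers of stomach mucosa rose, at summed levels of 190 to 320 CPM in TSC1 KO islets and 10.9 to 19.8 CPM in RC control islets, with Gkn1, Gkn2, Tff1 and Muc5ac at 0 in both groups. In RC control libraries Gkn3 read 0.79 and 0 CPM, Pgc 1.90 and 0 CPM, and Muc6 0.16 and 0.44 CPM. These passed the low-count filter through the TSC1 KO libraries, so they could hardly have been called lower. Of 10 tested acinar markers none passed by edgeR, also at an unadjusted p under 0.05, at 1371 to 3356 CPM in TSC1 KO islets and 2209 to 3245 CPM in RC control islets. Mitochondrially encoded genes took 39.77% and 46.83% of counts in TSC1 KO libraries, against 12.36% and 9.05% in RC control libraries. With insulin and mitochondrial genes taken out of the table the enzyme calls were again 1 higher and 2 lower. The part of the marker shifts in the falls of Mthfd1l and Mthfd2 and the rise of Shmt1 was not tested.

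**Figure D3:**
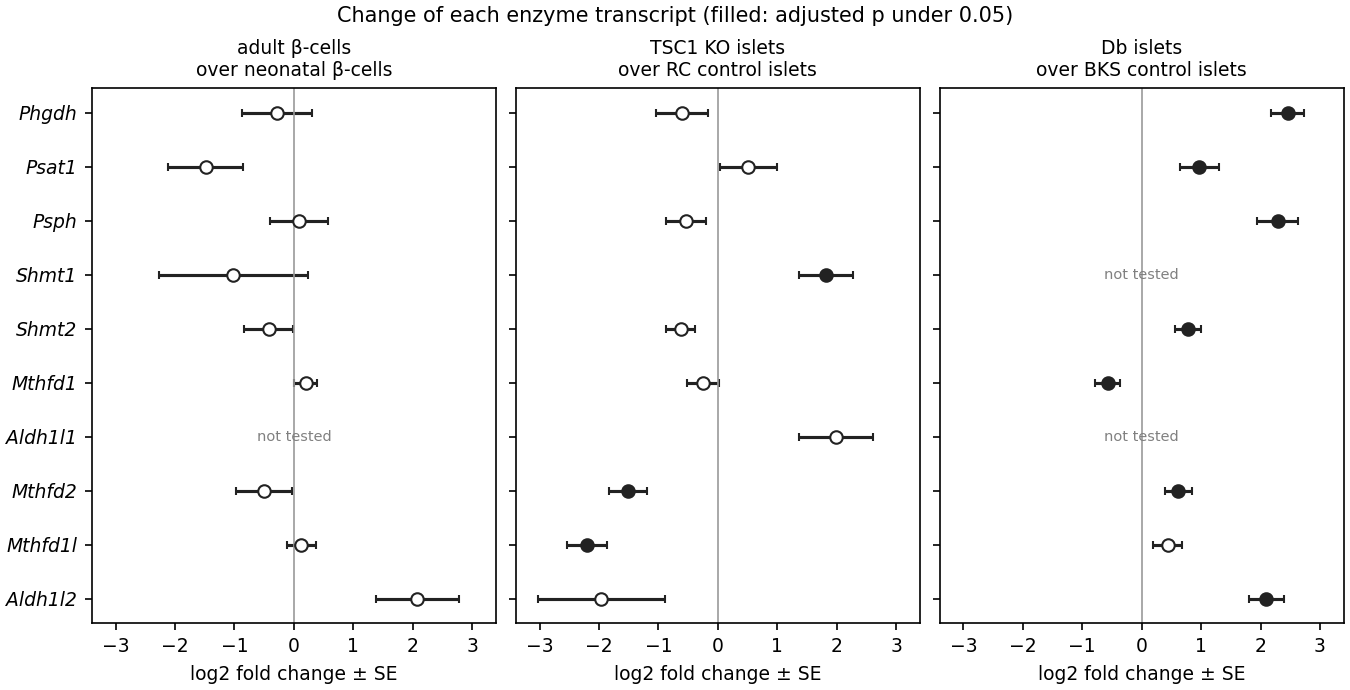
Log2 fold change ± SE of each enzyme transcript (rows) in adult over neonatal β-cells (n = 3 each), TSC1 KO over RC control islets and Db over BKS control islets (n = 2 each), with filled points at an edgeR adjusted p under 0.05. Filled points stand at Mthfd2, Mthfd1l and Shmt1 in the TSC1 KO panel and at 7 of the 8 tested transcripts in the Db panel, the first panel having none.

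Islets labelled Db were compared with BKS control islets to ask how the enzymes stand in this diabetes model at 4 weeks. Of the 8 enzyme transcripts tested, 6 rose and 1 fell, where 48.2% of all 14369 transcripts tested passed (24.3% higher and 23.9% lower). All 3 serine synthesis enzymes rose, Phgdh 5.48-fold, Psph 4.89-fold and Psat1 1.96-fold. In the mitochondrial branch Aldh1l2, Shmt2 and Mthfd2 rose, and cytosolic Mthfd1 fell. The groups did not overlap for 8 of 8 tested, 7 higher and 1 lower, against 74.7% of all transcripts tested (37.2% higher and 37.5% lower). Their median log2 fold change was 0.87, against -0.027 over all transcripts.

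Phgdh read 21.2 and 17.2 CPM in Db islets, against 3.75 and 3.21 CPM in BKS control islets. Both Db libraries stood far above both controls (log2 fold change 2.45 ± 0.28, edgeR adjusted p = 4.46e-08). Psph read 9.95 and 8.77 CPM in Db islets, against 2.57 and 1.155 CPM in BKS control islets, the last from 9 reads. Every Db library was above every control (2.29 ± 0.34, edgeR adjusted p = 4.63e-06, and 3.04 without BKS control replicate 1). Psat1 read 5.25 and 6.93 CPM in Db islets, against 3.96 and 2.18 CPM in BKS control islets, and the groups were close but did not overlap (0.97 ± 0.33, edgeR adjusted p = 0.0174). The Psat1 call was lost with DESeq2, without Db replicate 2 and without BKS control replicate 2 (adjusted p over the alternatives 0.00191 to 0.155).

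Summed over Phgdh, Psat1 and Psph, serine synthesis transcripts were at 32.9 to 36.4 CPM in Db islets and 6.55 to 10.3 CPM in BKS control islets. The start-site windows of Phgdh and Psph both hold CCAAT, and of this pair the Psph window alone holds GGGCGG.

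Aldh1l2 read 20.1 and 19.2 CPM in Db islets, against 6.32 and 2.70 CPM in BKS control islets. The Db libraries lay close together and above both controls (2.09 ± 0.29, edgeR adjusted p = 2.88e-06, and 2.89 without BKS control replicate 1). Shmt2 read 25.1 and 23.1 CPM in Db islets, against 14.7 and 13.4 CPM in BKS control islets, again without overlap (0.78 ± 0.22, edgeR adjusted p = 0.0047). Mthfd2 read 24.8 and 21.7 CPM in Db islets, against 15.6 and 14.6 CPM in BKS control islets (0.62 ± 0.22, edgeR adjusted p = 0.0216), a call that was lost without Db replicate 1 (adjusted p 0.143, the highest over the alternatives, the lowest being 0.00751). Mthfd1l read 11.7 and 15.1 CPM in Db islets, against 10.4 and 9.37 CPM in BKS control islets, and did not pass (0.44 ± 0.25, edgeR adjusted p = 0.146).

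Mthfd1 read 28.2 and 32.5 CPM in Db islets, against 51.7 and 38.6 CPM in BKS control islets. Both Db libraries were below both controls (-0.57 ± 0.21, edgeR adjusted p = 0.0243). The call was lost with library size as the scale, with no filter on low counts, with DESeq2, and without either Db library or BKS control replicate 1 (adjusted p over the alternatives 0.00225 to 0.499). Shmt1 had 4 and 12 reads in Db libraries and 12 and 5 reads in BKS control libraries, and Aldh1l1 7 and 12 reads in Db libraries and 7 and 5 reads in BKS control libraries. Both were left untested. Phgdh, Psph, Shmt2 and Aldh1l2 passed in 11 of 11 alternatives each.

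Lists of the genes upstream of serine synthesis and of serine supply were counted against the same shares of all transcripts (24.3% higher and 23.9% lower). In a list of glycolysis down to 3-phosphoglycerate, 4 of 10 tested rose and none fell. The list also holds Pgam1, which acts on 3-phosphoglycerate and was not called (edgeR adjusted p = 0.904). Aldoa (aldolase) was at 350 and 352 CPM in Db islets, against 142 and 111 CPM in BKS control islets (1.47 ± 0.21, edgeR adjusted p = 2.42e-06). Of 10 tested serine and glycine transporters 5 rose and none fell. Slc38a5 read 16.8 and 17.4 CPM in Db islets, against 3.21 and 1.67 CPM in BKS control islets (2.78 ± 0.30, edgeR adjusted p = 2.85e-08). The exchangers Slc1a5 (1.63 ± 0.30, edgeR adjusted p = 7.36e-05) and Slc1a4 (0.95 ± 0.30, edgeR adjusted p = 0.0111) rose with it.

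Of 12 tested genes for folate uptake and other folate enzymes 4 rose and 1 fell. Fpgs read 47.1 and 44.6 CPM in Db islets, against 14.4 and 16.9 CPM in BKS control islets (1.55 ± 0.21, edgeR adjusted p = 1.34e-06). The folate transporter genes Slc46a1 (1.73 ± 0.29, edgeR adjusted p = 1.75e-05) and Slc19a1 (1.35 ± 0.32, edgeR adjusted p = 0.00117) also rose. Mthfd2l, a mitochondrial relative of Mthfd2, read 2.99 and 2.81 CPM in Db islets, against 7.93 and 7.96 CPM in BKS control islets (-1.45 ± 0.30, edgeR adjusted p = 0.000227), opposite in direction to Mthfd2. In glycine cleavage, which splits glycine into a folate-bound carbon unit, 1 of 4 rose and 1 fell. Gldc, its decarboxylase, read 4.64 and 3.78 CPM in Db islets, against 0 and 0.51 CPM in BKS control islets (edgeR adjusted p = 5.44e-06), and Dld, shared with the pyruvate dehydrogenase complex, fell by 0.85 on the log2 scale (edgeR adjusted p = 0.00377).

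Pathways that use the carbon units and serine had calls in both directions. Over all transcripts tested 48.2% passed (24.3% higher and 23.9% lower), and the share called in each of these lists was near that. In purine synthesis 4 of 13 rose and 2 fell (median log2 fold change -0.05), among them Adsl (1.17 ± 0.26, edgeR adjusted p = 0.000594) and Paics (-1.31 ± 0.23, edgeR adjusted p = 4.44e-05). In the methionine list 1 of 14 rose, Srm, and 6 fell (median -0.59). In the list of glutathione genes 2 of 6 rose and 1 fell (median 0.84). The rises were the γ-glutamyltransferase family genes Ggt1 and Ggt7, and the fall was Gclm, of glutathione synthesis. In a list of serine users for sphingolipids and phosphatidylserine 2 of 12 rose and 4 fell (median -0.32). The list also holds genes outside those pathways, and Srr (serine racemase) and Agxt2 (an aminotransferase) were among the falls. The S-phase and proliferation list had 2 of 14 higher and 4 lower, with Mki67, the proliferation marker, at 3.21 and 3.68 CPM in Db islets, against 16.6 and 10.8 CPM in BKS control islets (-1.99 ± 0.28, edgeR adjusted p = 2.02e-06).

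In the ATF4 and amino acid response 14 of 21 tested rose and 3 fell, with a median log2 fold change of 0.92 against -0.027 over all transcripts. Pycr1 read 118 and 137 CPM in Db islets, against 14.8 and 15.5 CPM in BKS control islets (3.07 ± 0.22, edgeR adjusted p = 1.32e-11). Stc2 (4.44 ± 0.54, edgeR adjusted p = 1.85e-07) and the stress protein gene Nupr1 (1.97 ± 0.26, edgeR adjusted p = 1.16e-06) were the other leading rises. The members that fell were Gars, the glycyl-tRNA synthetase (-1.04 ± 0.21, edgeR adjusted p = 0.000221), and the transcription factors Atf5 (-0.97 ± 0.23, edgeR adjusted p = 0.00133) and Cebpb (-0.87 ± 0.22, edgeR adjusted p = 0.0019). Atf4 itself, named after its values were seen, did not pass (0.36 ± 0.21, edgeR adjusted p = 0.161).

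Markers moved with the Db label as well. Of 10 β-cell markers 7 fell and 1 rose, Iapp, with summed levels of 427700 to 494600 CPM in Db islets and 599900 to 920500 CPM in BKS control islets. Of 9 tested acinar markers 7 rose and 1 fell, at 138 to 300.3 CPM in Db islets and 23.0 to 27.5 CPM in BKS control islets. Of 7 mesenchymal markers 5 rose (496 to 526 CPM, against 172 to 274 CPM). Of 7 tested duct markers 2 rose and 2 fell (814 to 857 CPM, against 365 to 377 CPM), and of 7 endothelial markers 2 rose and 4 fell (561 to 566 CPM, against 792 to 832 CPM). Of 9 other endocrine markers 2 rose and 1 fell (9523 to 11030 CPM, against 4038 to 7865 CPM), with Ttr (2.80 ± 0.30, edgeR adjusted p = 8.8e-07) and the somatostatin gene Sst (1.57 ± 0.24, edgeR adjusted p = 7.25e-06) higher and the transcription factor gene Hhex lower (-1.17 ± 0.26, edgeR adjusted p = 0.000638). With insulin and mitochondrial genes taken out of the table the enzyme calls were again 6 higher and 1 lower. The part of the marker shifts in these calls was not tested.

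The changes in TSC1 KO islets and in Db islets were set against each other in 1 fit over the 8 islet libraries, each group against its own control. The change differed for 7 of the 10 enzyme transcripts, where 31.8% of the 15702 transcripts tested differed. It was lower in TSC1 KO islets for 6, against 18.6% of all transcripts, and higher for 1, against 13.2%. Aldh1l2 had the largest difference, -4.20 ± 1.26 on the log2 scale (edgeR adjusted p = 0.0465), though its call was lost in 5 of 15 alternatives, each with 1 library left out. It ran from -6.09 without TSC1 KO replicate 2 to -2.80 without RC control replicate 2, and was -3.32 without TSC1 KO replicate 1, -5.00 without RC control replicate 1 and -4.95 without BKS control replicate 1. Phgdh differed by -3.17 ± 0.47 (edgeR adjusted p = 0.000439) and Psph by -2.91 ± 0.51 (edgeR adjusted p = 0.00129, and -3.62 without BKS control replicate 1), in each case with a rise in Db islets and no call in TSC1 KO islets.

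Mthfd1l (-2.73 ± 0.41, edgeR adjusted p = 0.000512) and Mthfd2 (-2.22 ± 0.37, edgeR adjusted p = 0.000943) also differed, both having fallen in TSC1 KO islets, and Mthfd2 having risen in Db islets. Shmt2 differed by -1.50 ± 0.32 (edgeR adjusted p = 0.00371). Shmt1 differed the other way, by 2.98 ± 0.84 (edgeR adjusted p = 0.0181), from low counts in the Db table, where it was not tested by itself. This call was lost without TSC1 KO replicate 2, Db replicate 1 or BKS control replicate 1 (2.38), and the difference was 3.81 without Db replicate 2.

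No difference passed for Psat1 (-0.54 ± 0.59, edgeR adjusted p = 0.513), Mthfd1 (0.24 ± 0.35, edgeR adjusted p = 0.631) or Aldh1l1 (2.42 ± 0.92, edgeR adjusted p = 0.0614). Missing the threshold does not show that their changes were alike. The islets of the TSC1 KO table were from 8-week-old mice and those of the Db table from 4-week-old mice, so model, age and table cannot be told apart in these differences.

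**Figure D4:**
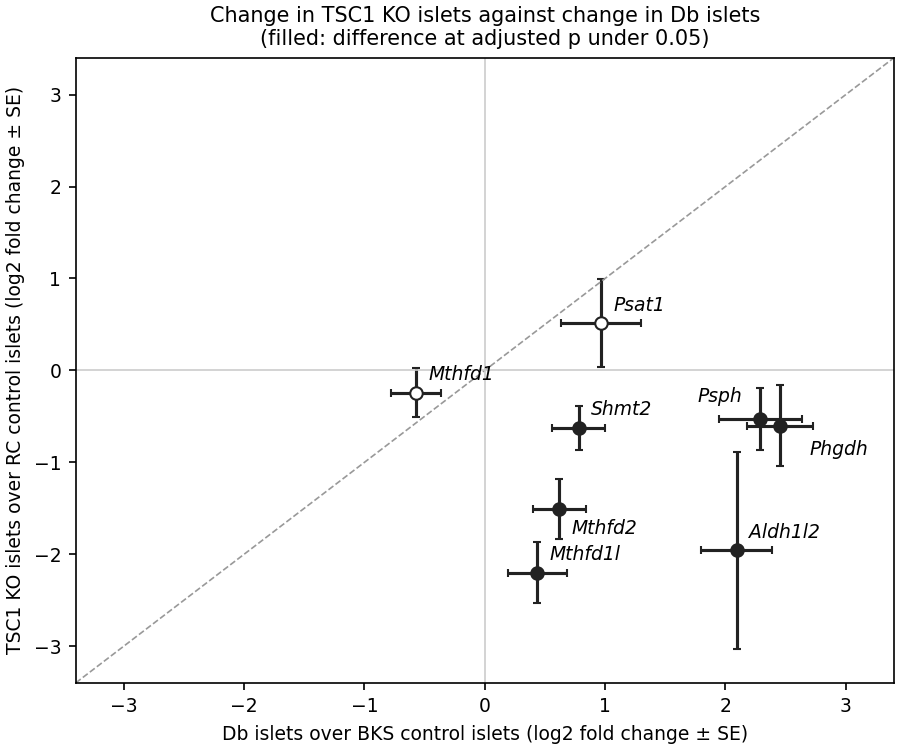
Log2 fold change ± SE in TSC1 KO over RC control islets (vertical axis) against that in Db over BKS control islets (horizontal axis), n = 2 libraries per group, for the 8 enzyme transcripts tested in both tables; filled points differed between the tables at an edgeR adjusted p under 0.05 and the dashed line marks equal change. The 6 filled points lie below the line, at positive Db changes and negative TSC1 KO changes, and the open points are Psat1 and Mthfd1.

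Transcripts whose pattern lay nearest to each enzyme were sought among 11887 genes that passed the low-count filter in all 3 tables. The measure was the root-mean-square difference of log2(CPM + 0.5), centred within each table, over all 14 libraries, which share their depth and cell make-up. For Mthfd2 the nearest were Tmem97 (0.22), Asns (0.24) and Fitm2 (0.26), where the spread of Mthfd2 around its own table means was 0.59. Asns read 148, 136 and 120 CPM in adult β-cells, 17.7 and 16.1 CPM in TSC1 KO islets, against 49.0 and 48.9 CPM in RC control islets, and 26.0 and 25.6 CPM in Db islets, against 18.3 and 17.8 CPM in BKS control islets. It fell in TSC1 KO islets (-1.53 ± 0.20, edgeR adjusted p = 0.0124) and rose in Db islets (0.51 ± 0.21, edgeR adjusted p = 0.0477). Asns was picked for its nearness to Mthfd2 in these same libraries. Its directions, shared with Mthfd2, therefore follow largely from that choice and are no separate evidence.

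For Mthfd1l the nearest were Sfxn2 (0.23), Galr1 (0.24) and Pgm3 (0.24), with an own spread of 0.61. Shmt2 lay nearest to Zmat3 (0.17), Tars (0.18) and Ptges2 (0.20), and Psph to Atp6v0c-ps2 (0.24), Spryd3 (0.26) and Pck2 (0.28). Phgdh had no gene nearer than 6430548M08Rik at 0.39, followed by Tro (0.41) and Sys1 (0.42), with an own spread of 0.85. Psat1 lay nearest to Sbno2 (0.33) and Mthfd1 to Cpsf3 (0.13). Aldh1l2 was the least matched, at 0.71 from Rbm20 with an own spread of 1.32. Shmt1 did not pass the filter in the Db table and was not compared.

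Some of these counts could include, or lack, reads from places shared with other genes, since the counting tool's strand setting is not given. In the GENCODE annotation of GRCm38, exons on the opposite strand cover 14.1% of the exonic bases of Aldh1l2 (D10Wsu102e), 11% of Aldh1l1 (Gm15756), 10.4% of Psph (Cct6a) and 4.7% of Shmt1 (Smcr8). The overlap is 1% of Shmt2 (Ndufa4l2) and 0.8% of Mthfd1 (Gm47525). Phgdh has an annotated processed pseudogene, Phgdh-ps1. The levels of Aldh1l2, Aldh1l1, Psph, Shmt1 and Phgdh are uncertain for these reasons, by an amount that shares of bases do not give.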

How the data were processed

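The authors deposited raw read counts per gene in 3 tables, whole numbers with no normalization. Per the labels' protocols, Trizol was used to extract RNA, and a SMARTer Stranded kit to make the libraries. DESeq2 1.16.0, HTSeq 0.7.1, GSNAP and cutadapt 1.13 are listed, per the submitters' processing notes, beside the builds mm9 and NCBIM37, whose role is not stated. The tables hold no coordinates, and all coordinates here are of GRCm38. Symbols were matched for 32620 of the 37310 identifiers through GENCODE annotation of GRCm38, which also gave exon lengths.

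Of the neonatal columns 2 carry the same number, 3, and are called replicates 3a and 3b. Within groups a chi-square of counts gave 10.03 to 81.32 per degree of freedom, so no pair looked like 1 library deposited again. Rows that name no gene were left out. Reads outside features made up 16.33% to 32.53% of all reads in β-cells and 42.5% to 49.56% in the Db table, and unaligned reads 53.64% in adult replicate 3. The TSC1 KO table has no such rows. Intervals and floors cover counting error only, as several reads can stem from 1 molecule.

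Each table was fitted by the quasi-likelihood test of edgeR 4.0.16 (R 4.3.3, limma 3.58.1) with TMM scaling and filterByExpr (minimum count 10, minimum total 15). For the difference between the islet models, the counts of both islet tables were joined and fitted together. Scaling, filter and the estimate of spread were then shared by both tables. P-values were adjusted over all transcripts tested by Benjamini-Hochberg, with a threshold of 0.05. CPM are counts over the TMM-scaled totals. The fit was tested on simulated counts. In no comparison does missing the threshold show that a transcript was unchanged. Alternatives were library size only, DESeq2 size factors, DESeq2 1.42.0, limma-voom, no filter (minimum total 1), insulin and mitochondrial genes taken out, each library left out and a replicate block.

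The 10 enzymes and all gene lists were chosen with earlier results of these data known. All enzymes are named in every comparison. From each list up to 3 genes per direction are named, those past the threshold with the largest change and no overlap, and for each enzyme called somewhere up to 3 genes of nearest pattern.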

Additional observations from a re-analysis of the deposited data

Results flagged for a closer look

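For 7 of the 10 enzyme transcripts the change in TSC1 KO islets differed from the change in Db islets by edgeR's interaction test. Each change was taken against its own controls, RC or BKS. Of all 15702 transcripts tested 31.8% differed, 18.6% being lower and 13.2% higher in TSC1 KO islets. The values are the TSC1 KO change minus the Db change on the log2 scale. Aldh1l2 differed by -4.20, Phgdh by -3.17, Psph by -2.91, Mthfd1l by -2.73, Mthfd2 by -2.22 and Shmt2 by -1.50, with the lower value in TSC1 KO islets. Shmt1 differed by 2.98, with the higher value in TSC1 KO islets. It had 4 and 12 reads in Db libraries and 12 and 5 in BKS control libraries, too few for its Db change to be tested by itself. It passed the filter of the joint fit through the TSC1 KO and RC control libraries. The call for Aldh1l2 was kept in 10 of 15 alternatives and that for Shmt1 in 12. The models also differ in age and count table, which cannot be told apart.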

How the results depend on the processing

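Of the single-transcript values recomputed under the alternatives, 406 kept direction and side of the threshold, 29 lost their call, 6 gained one and 15 turned in sign. The number of enzymes called between adult and neonatal β-cells was 0, and 1 with limma-voom, and 0 to 1 with each library left out. In TSC1 KO islets it was 3, and 0 to 4 with each library left out. In Db islets it was 7, with 5 to 7 over the alternatives, and for the difference between islet models 7, with 5 to 8. With library size as the scale the median over all transcripts moved to -0.19 in adults, -0.25 in TSC1 KO islets and 0.29 in Db islets. All-transcript calls were then 321 higher and 872 lower in adults (484 and 515 with TMM), 756 and 1961 in TSC1 KO islets (1252 and 1451) and 3983 and 1562 in Db islets (3488 and 3431). For the difference between the islet models they were 868 and 3811 (2066 and 2922), with a median of -0.47.

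The following signs turned. In adults against neonates Psph was -0.067 and Mthfd1l -0.032 with library size, and Phgdh was 0.25 with limma-voom. With each library left out, Psph ranged from -0.16 to 0.49, Mthfd1l from -0.081 to 0.33, Phgdh from -0.67 to 1.05, Shmt2 from -0.80 to 0.16 and Mthfd2 from -0.81 to 0.32. In TSC1 KO islets Mthfd1 ranged from -0.56 to 0.014. Its difference between islet models was -0.22 with library size and ranged from -0.13 to 0.42. All-transcript calls moved by over 1.5 times with DESeq2 in adults (1575, against 999) and with libraries left out, where they ran from 405 to 1380 in adults, from 0 to 4015 in TSC1 KO islets (2703 with all libraries), from 4419 to 6666 in Db islets (6919) and from 2910 to 5909 for the difference between islet models (4988).

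With the replicate number as a block 2 enzymes were called in TSC1 KO islets (Mthfd2 and Mthfd1l) and 7 in Db islets, over all transcripts 1648 and 6614. Same-numbered libraries did not deviate together (correlations -0.056 and -0.048), so the block is no pairing. No paired analysis was possible because 2 neonatal columns carry the same number, in the β-cell table. Depth limits the TSC1 KO table most, where in TSC1 KO libraries Mthfd1l rested on 12 and 18 reads and Shmt1 on 29 and 29. In RC control libraries Shmt1 rested on 17 and 13 reads.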
